A study of Mus musculus with 10 samples.

Results

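The Hox genes encode homeodomain transcription factors and lie in 4 clusters, HoxA, HoxB, HoxC and HoxD. The clusters are represented here by all probe sets whose single gene symbol in the platform annotation was a Hox letter and number. That rule gave 48 of the 45101 probe sets on the array, for 33 genes. RefSeq lists 39 protein-coding genes in these clusters, so 6 of them, Hoxd4 among these, had no such probe set. HoxA held 16 probe sets for 9 genes, HoxB 11 for 9, HoxC 11 for 7 and HoxD 10 for 8, and 11 genes had several probe sets. The rule used no measured value.

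Hox genes give cells their position along the head-to-tail axis of the embryo, and within a cluster the order of the genes along the chromosome follows the order of their expression domains. In cells that do not use them, the clusters are typically held silent by Polycomb group proteins, while Trithorax group proteins keep active Hox genes on. CTCF, a zinc finger protein, binds insulator elements within and at the edges of the clusters in other cell types, and helps to separate active from Polycomb-bound stretches there. The question put to the arrays was whether these clusters stay silent when CTCF is depleted.

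Total RNA came from mouse GV oocytes (GV stands for germinal vesicle), grown oocytes whose nucleus has not yet broken down for meiosis. The 2 groups were wild-type oocytes and CTCF-depleted oocytes, with 5 arrays each. Strain, age, the means of depletion, the number of oocytes in a sample and whether samples came from separate animals are not stated in the labels. The p-values below therefore measure the spread between these arrays, which may be technical.

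The targeted gene was low on every depleted array. One Ctcf probe set gave a signal of 766 ± 74.1 (SD, n = 5) in wild type and 20.7 ± 22.7 in depleted oocytes, and the other gave 1001 ± 76 and 36.3 ± 33.7. Depleted replicate 5 had the highest remaining Ctcf signals, 61.1 and 95.8, where the other depleted arrays had at most 14.2 and 29.3. All 16 probe sets of the oocyte marker list, which includes zona pellucida genes and Gdf9, were above the background level defined next on all 10 arrays, and 0 of them were called, with 2 at an unadjusted p under 0.05 in limma. Of 27022 probe sets tested over the whole array, 1481 were called higher and 1925 lower in depleted oocytes, and after centring each array on its median the split was 2179 to 1086.

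Most Hox genes gave little or no signal in either group. Bacillus transcripts, which mouse RNA lacks, are represented by 27 control probe sets, and the brightest of them on an array set that array's background level. It lay between 6.15 and 10.2 on the wild-type and between 4.75 and 10.9 on the depleted arrays. Of the 48 Hox probe sets, 17 were at or under it on every array, which is 35.4% against 27% of all 45037 probe sets other than controls. Only 6 were above it on all 10 arrays, 12.5% against 42.9%. A further 11 exceeded it on 1 or 2 arrays and 14 on 3 to 9 arrays.

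The 6 probe sets above background on every array stood for Hoxa5, Hoxa7, Hoxa9, Hoxb4, Hoxd8 and Hoxd13. No probe set of Hoxa2, Hoxb5, Hoxb9, Hoxb13, Hoxc4, Hoxc5, Hoxd11 or Hoxd12 exceeded it on any array, so 8 of the 33 genes had no detectable signal. For these genes the arrays give only an upper limit, the background level, and no fold.

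**Figure D1:**
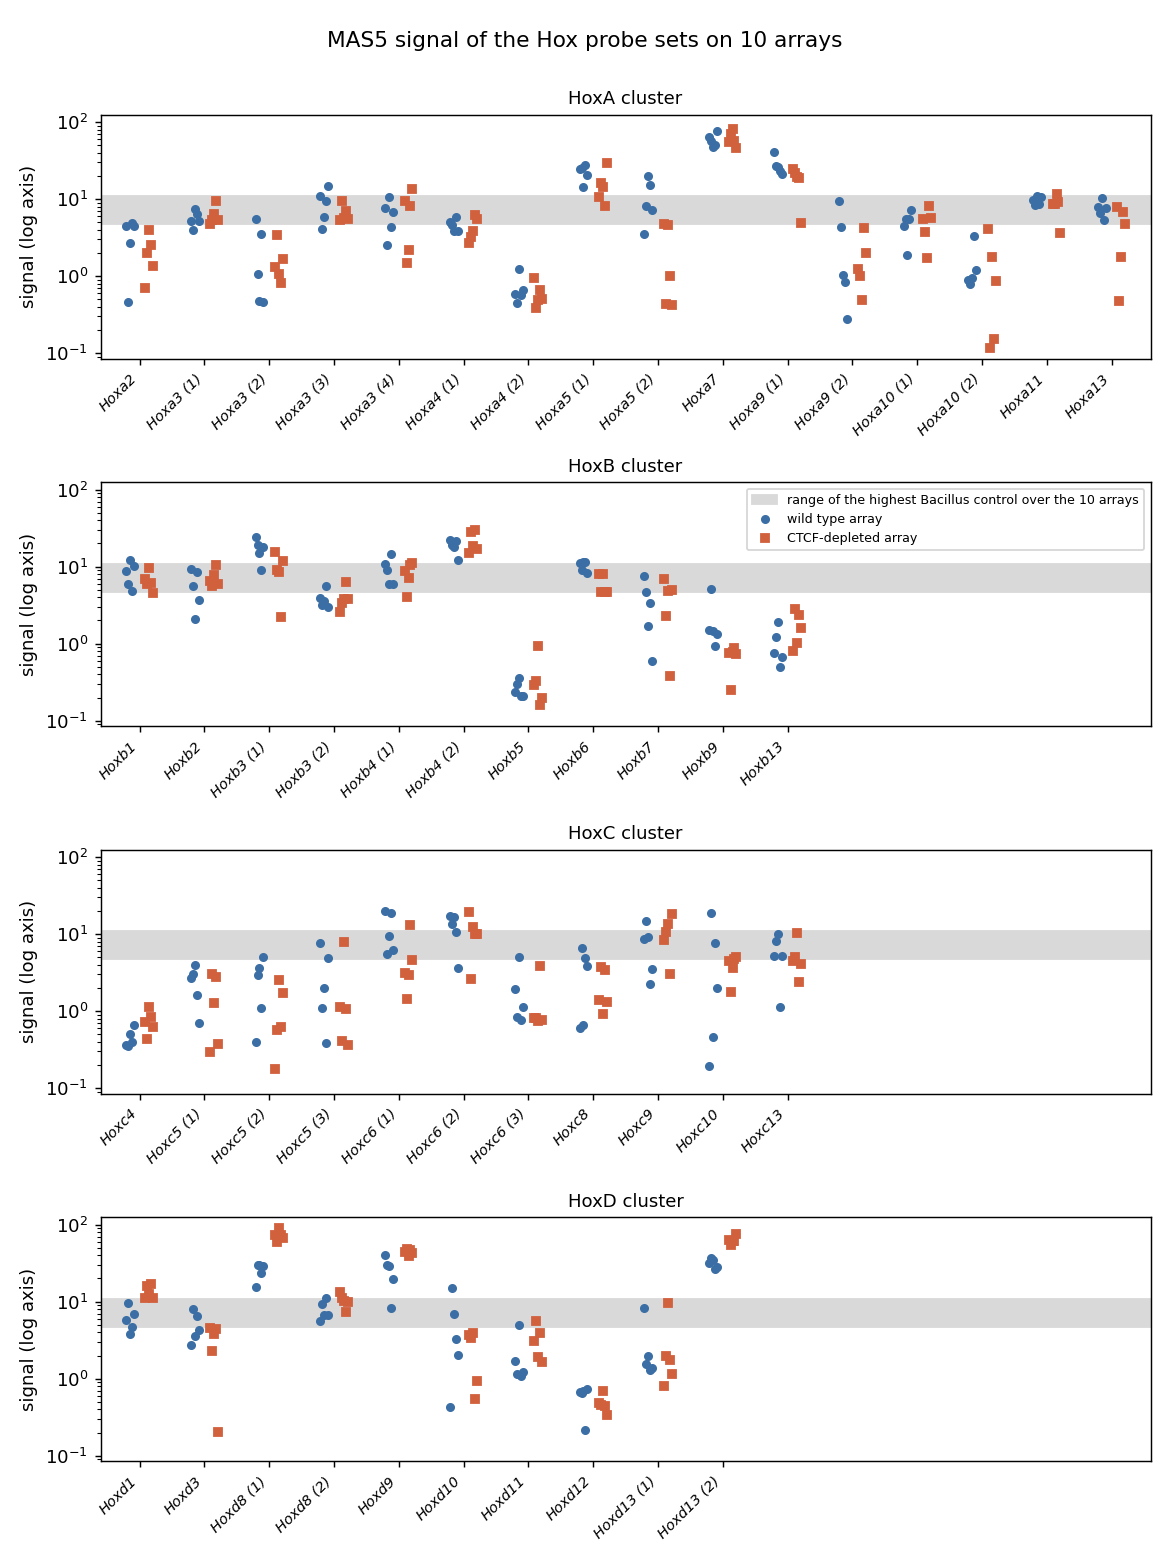
Signal of each Hox probe set on the 5 wild-type (circles) and 5 CTCF-depleted (squares) arrays, by cluster in paralogue order, on a log axis, with numbers in brackets for several probe sets of a gene. The grey band spans the background levels of the 10 arrays, 4.75 to 10.9; most Hox signals lie in or under it, and Hoxa7, Hoxb4 (2), Hoxd8 (1) and Hoxd13 (2) lie above it on all arrays.

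The number of Hox probe sets above background did not separate the groups. On wild-type replicates 1 to 5 it was 13, 22, 19, 15 and 11, and on depleted replicates 1 to 5 it was 12, 13, 11, 18 and 21. The means were 16 ± 4.47 and 15 ± 4.3 (SD, n = 5 each), and the ranges overlapped almost fully. The count moved with the array's own background level. The arrays with the lowest levels, wild-type replicate 2 and depleted replicate 5, gave the most Hox probe sets above it, and also the largest shares of all probe sets above it, 60.3% and 62.9%. Over single probe sets, 10 exceeded background on more depleted than wild-type arrays, 12 on more wild-type arrays and 26 on equal numbers.

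By cluster, HoxA had a mean of 5.8 probe sets above background in each group. HoxB had 3.8 ± 0.447 in wild type and 2.6 ± 1.52 in depleted oocytes, and HoxC 2.6 ± 1.95 and 1.8 ± 0.837. HoxD had 3.8 ± 1.79 and 4.8 ± 0.447. In each cluster the ranges of the 2 groups overlapped.

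**Figure D2:**
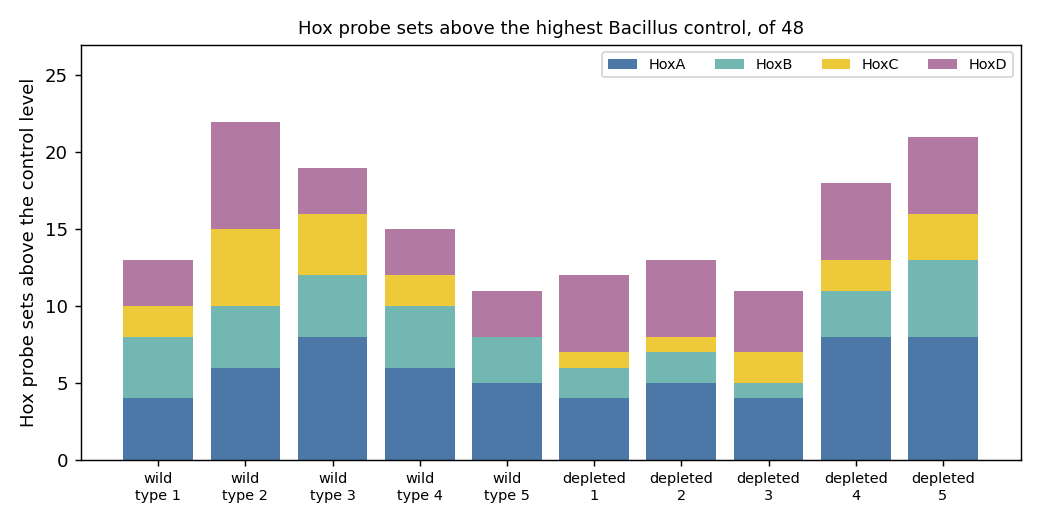
Number of the 48 Hox probe sets above the brightest Bacillus control of the same array, stacked by cluster, for each of the 10 arrays. Wild-type arrays ranged from 11 to 22 and depleted arrays from 11 to 21.

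Changes between the groups were tested on probe sets whose mean of log2(signal + 2.47) over the arrays matched a signal above about 5.13. Of the 48 Hox probe sets 22 passed this filter (45.8%, against 60% of all). They stood for 17 genes, and the highest signal of any of the 26 others on any array was 20, for a Hoxa5 probe set. The Hox probe sets with a mean just inside the filter were those of Hoxa13 (mean log2 value 2.96) and Hoxa3 (3.05, for 2 of its 4 probe sets), and just outside it were those of Hoxc13 (2.92) and Hoxa5 (2.85, for its dimmer probe set). Calls were made at a Benjamini-Hochberg adjusted p under 0.05 in limma over all tested probe sets.

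Depleted oocytes had more signal for 4 HoxD genes, Hoxd1, Hoxd8, Hoxd9 and Hoxd13, and 0 Hox probe sets were called lower. Over the whole array 12.6% of tested probe sets were called, 5.48% higher and 7.12% lower. All 4 Hox calls were among the 5 HoxD probe sets tested, and 0 of 17 tested HoxA, HoxB and HoxC probe sets were called, with a smallest adjusted p of 0.108. At an unadjusted limma p under 0.05, 4 of those 17 were lower (Hoxa9, Hoxb3, Hoxb6 and Hoxc6) and 0 higher. The share of all tested probe sets at this unadjusted threshold was not counted, so no direction can be read from these 4. The median log2 fold change, depleted over wild type, was -0.07 over the 22 Hox probe sets and -0.02 over all tested. Over the tested probe sets of a cluster it was 0.92 for HoxD, -0.25 for HoxA, -0.17 for HoxB and -0.17 for HoxC. Over all members, in a fit without the filter, it was 0.34, -0.16, 0.02 and -0.17 in the same order, so the sign for HoxB turned. Of the tested Hox probe sets 45.5% had a positive fold change, close to the 46% of all.

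Hoxd8, a gene from the middle of its cluster that is active in the trunk of the embryo, had the largest fold change of the 22 tested Hox probe sets. Its brighter probe set gave signals of 15.5, 29.8, 30.0, 23.8 and 28.7 on wild-type replicates 1 to 5. On depleted replicates 1 to 5 it gave 72.6, 59.2, 89.1, 72.8 and 67.8. Every depleted array was above every wild-type array, and all 10 were above background. The means were 25.6 ± 6.15 and 72.3 ± 10.9 (SD, n = 5 each), a log2 fold change of 1.44 ± 0.17 (SE) with a limma adjusted p of 1.75e-05. The other Hoxd8 probe set lay near background, with 7.89 ± 2.32 and 10.4 ± 2.25. Its log2 fold change was 0.33 ± 0.23, with a 95% interval of -0.17 to 0.82 and a limma adjusted p of 0.426.

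Hoxd13, the outermost gene of the cluster, patterns the digits and the genital region. Its brighter probe set gave 31.6, 36.6, 34.4, 26.5 and 28.2 in wild type and 62.6, 55.0, 60.8, 60.4 and 74.5 in depleted oocytes. The groups did not overlap, and all 10 arrays were above background. The means of 31.5 ± 4.19 and 62.6 ± 7.2 gave a log2 fold change of 0.94 ± 0.13 with a limma adjusted p of 7.59e-05. The other Hoxd13 probe set was at or under background on all arrays, with means of 2.9 and 3.05, and was not tested.

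Hoxd1, at the opposite end of the cluster, belongs to the most anterior group of Hox paralogues. Its only probe set gave 5.73, 9.65, 3.78, 4.63 and 6.82 in wild type. In depleted oocytes it gave 11, 15.8, 12.6, 17.2 and 11.2. It was above background on 1 wild-type and on 5 depleted arrays, and the groups did not overlap. The means were 6.12 ± 2.28 and 13.6 ± 2.79, the log2 fold change was 0.92 ± 0.24 and the limma adjusted p was 0.016. Without depleted replicate 4 the adjusted p was 0.0515, and the dim wild-type signals limit the precision of the fold.

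Hoxd9, which neighbours Hoxd8 and acts in limb and trunk patterning, had the least secure call. Its only probe set gave 40.8, 30.3, 29.2, 8.35 and 19.9 in wild type and 44.3, 47.7, 39.2, 46.3 and 42.9 in depleted oocytes. Wild-type replicate 1 lay within the depleted range, and wild-type replicate 4 was under its background level. The means were 25.7 ± 12.2 and 44.1 ± 3.28, the log2 fold change was 0.86 ± 0.27 and the limma adjusted p was 0.0444. Without wild-type replicate 4 the log2 fold change was 0.55 and the adjusted p was 0.0516, and the call was also lost without wild-type replicate 5 or any 1 depleted array.

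A two-sided exact permutation test over the 10 arrays gave 0.00794 for the called probe sets of Hoxd1, Hoxd8 and Hoxd13, the smallest p that 5 against 5 arrays allow, and 0.0159 for Hoxd9. Without depleted replicate 5, the array with the most Ctcf signal left, the log2 fold changes of Hoxd8, Hoxd13, Hoxd1 and Hoxd9 were 1.45, 0.88, 0.97 and 0.87. The limma adjusted p values then were 7.24e-05, 0.000337, 0.0228 and 0.0738, so the Hoxd9 call did not hold there. With the ratio of 3-prime to 5-prime control signal, a measure of RNA quality, as a covariate chosen after seeing the data, Hoxd8 (1.57) and Hoxd13 (0.94) were still called, while Hoxd1 (0.79, adjusted p 0.0737) and Hoxd9 (0.84, adjusted p 0.107) were not. The log2 of that ratio was 2.8 to 3.11 in wild type and 2.6 to 2.96 in depleted oocytes, and its part in the result was not tested further.

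**Figure D3:**
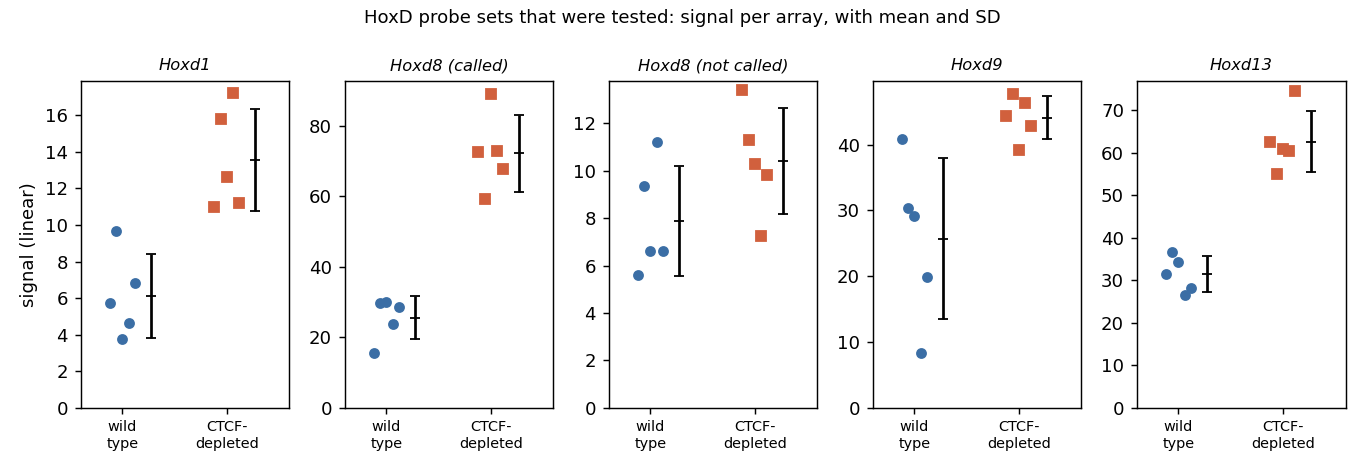
Linear signal on each array for the 5 tested HoxD probe sets, with mean and SD beside the points (n = 5 arrays a group). Hoxd1, Hoxd8 (called) and Hoxd13 had no overlap between groups, Hoxd9 overlapped through wild-type replicate 1 at 40.8, and the other Hoxd8 probe set was not called.

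The called genes were not neighbours in 1 uninterrupted stretch. Ordered by the gene starts in RefSeq, the cluster runs from Hoxd13 through Hoxd12, Hoxd11, Hoxd10, Hoxd9 and Hoxd8, then Hoxd3 and Hoxd4, to Hoxd1. Between the called genes, Hoxd11 and Hoxd12 were at or under background on all arrays, and Hoxd10 and Hoxd3 exceeded it on 1 wild-type and 0 depleted arrays each. Hoxd10 gave 5.6 ± 5.89 in wild type and 2.49 ± 1.62 in depleted oocytes, and Hoxd3 gave 5.04 ± 2.23 and 3.06 ± 1.83. None of these 4 genes was tested in the filtered fit, and at these signals a rise that stayed under background would not have been seen. In RNA of whole samples, fewer cells with a transcript and less transcript per cell cannot be told apart.

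The 250 bases before the start of the 4 called genes are shown because CTCF-bound boundaries lie inside HoxD in other cell types, so a reader can see what stands before these starts. The sequences are RefSeq's, build GRCm38.p6, chromosome 2, plus strand, which is the gene strand. Capitals mark each CCCTC, the letters in the name of CTCF (CCCTC-binding factor), and its reverse complement GAGGG. A capital stretch by itself does not mark a CTCF binding site.
Hoxd13, chr2:74667975-74668224: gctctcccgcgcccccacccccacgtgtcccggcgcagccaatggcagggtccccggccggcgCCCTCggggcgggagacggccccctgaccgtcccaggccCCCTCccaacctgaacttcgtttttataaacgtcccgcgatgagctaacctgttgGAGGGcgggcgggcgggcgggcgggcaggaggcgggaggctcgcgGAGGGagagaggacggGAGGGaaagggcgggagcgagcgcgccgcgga
Hoxd9, chr2:74697513-74697762: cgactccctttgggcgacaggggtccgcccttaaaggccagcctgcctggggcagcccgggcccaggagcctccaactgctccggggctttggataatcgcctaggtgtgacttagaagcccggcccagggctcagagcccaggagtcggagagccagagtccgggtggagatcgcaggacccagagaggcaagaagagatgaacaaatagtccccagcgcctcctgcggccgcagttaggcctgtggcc
Hoxd8, chr2:74704365-74704614: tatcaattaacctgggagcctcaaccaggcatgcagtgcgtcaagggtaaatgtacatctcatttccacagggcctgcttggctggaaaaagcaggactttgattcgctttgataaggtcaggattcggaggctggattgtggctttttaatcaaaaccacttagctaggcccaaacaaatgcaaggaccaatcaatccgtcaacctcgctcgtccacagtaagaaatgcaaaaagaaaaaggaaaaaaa
Hoxd1, chr2:74762730-74762979: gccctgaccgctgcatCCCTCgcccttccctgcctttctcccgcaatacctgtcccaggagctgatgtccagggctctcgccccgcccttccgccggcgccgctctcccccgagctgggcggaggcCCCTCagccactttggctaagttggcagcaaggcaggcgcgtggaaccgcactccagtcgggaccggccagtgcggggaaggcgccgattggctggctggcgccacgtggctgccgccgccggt

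The Hoxd13 window held 5 matches, 2 on the gene strand and 3 on the other, and the Hoxd1 window held 2. The Hoxd8 and Hoxd9 windows held 0. A match was found in 12 of the 20 other Hox windows, and so did 60.5% of all 32851 windows of this length, so the letters did not set the called genes apart. The longer CTCF core consensus, searched on both strands, matched 0 of 24 Hox windows and 0.508% of all windows. The Hoxd13, Hoxd1 and Hoxd9 windows were rich in G and C, at 74.4%, 71.6% and 65.2%, with 31, 24 and 13 CpG dinucleotides. The Hoxd8 window was at 44.4% with 6, where the medians over all windows were 52.4% and 6. The other Hox windows ran from 40.4% (Hoxd4) to 80.0% (Hoxa13), a range that held all the called ones. G and C content did not set the called genes apart either.

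In HoxA, Hoxa5, Hoxa7 and Hoxa9 had a probe set above background on all 10 arrays, and none was called. Hoxa7, which patterns the thoracic vertebrae, gave 64.5, 57.0, 47.8, 51.0 and 76.8 in wild type. It gave 54.6, 69.4, 80.2, 57.4 and 46.5 in depleted oocytes, so the groups covered the same range. The means were 59.4 ± 11.6 and 61.6 ± 13.2, and the log2 fold change was 0.05 with a 95% interval of -0.28 to 0.37 (limma adjusted p 0.895).

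Hoxa9, a posterior gene also known for its part in blood stem cells, gave 40.6, 26.8, 26.0, 23.5 and 20.9 in wild type and 24.7, 22.1, 19.4, 19.0 and 4.87 in depleted oocytes. The 2 ranges met between 20.9 and 24.7. Its means were 27.6 ± 7.67 and 18.0 ± 7.7, with a log2 fold change of -0.65 ± 0.30 and a limma adjusted p of 0.178. Hoxa5, which acts in the lung and the neck region, gave 24.9, 25.1, 14.3, 27.9 and 20.4 and then 10.7, 16.2, 14.2, 8.11 and 29.5 with its brighter probe set. Its means of 22.5 ± 5.32 and 15.8 ± 8.28 gave a log2 fold change of -0.53 ± 0.26 and a limma adjusted p of 0.215. The groups overlapped, and the identifier of this probe set carries the suffix x, which marks probes that may also bind other transcripts.

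The other Hoxa5 probe set was dimmer and fell just outside the filter. It gave 3.54, 8.14, 20, 15.2 and 7.27 in wild type, above background on 3 arrays, and 4.75, 0.431, 4.57, 1.02 and 0.425 in depleted oocytes, above it on none. In a fit of all probe sets without the filter it was called lower (limma adjusted p 0.0354), a call rule that 3.61% of all probe sets met in that direction. Of the other tested HoxA probe sets, Hoxa11 gave 9.75 ± 1.2 and 8.3 ± 2.88, Hoxa13 gave 7.55 ± 1.81 and 4.3 ± 3.13, and the 3 of Hoxa3 had log2 fold changes from -0.28 to 0.09. None of these was called.

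In HoxB, Hoxb4, a gene of the hindbrain and neck, had the clearest signal. Its brighter probe set gave 22.4, 19.2, 18.1, 21.4 and 12.1 in wild type and 15.1, 28.4, 18.4, 29.9 and 16.8 in depleted oocytes, with wide overlap. The means were 18.6 ± 4.01 and 21.7 ± 6.9, and the log2 fold change was 0.17 with a 95% interval of -0.27 to 0.62 (limma adjusted p 0.671). Hoxb3, its neighbour, gave 24.6, 18.9, 15.1, 8.94 and 17.9 in wild type, all above background. In depleted oocytes it gave 15.7, 8.94, 8.44, 2.23 and 12, above background on 3 arrays. Its log2 fold change of -0.79 ± 0.32 had a limma adjusted p of 0.13, and the groups overlapped.

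Hoxb6, a gene of the trunk, was the only tested Hox probe set whose depleted arrays all lay under the wild-type arrays. It gave 11.2, 8.99, 11.6, 11.4 and 8.17 in wild type and 8.04, 4.70, 7.97, 4.74 and 4.62 in depleted oocytes. The signal was above background on 4 wild-type and 0 depleted arrays. The limma adjusted p was 0.108, and it was not called. Groups did not overlap in this direction for 6.38% of all tested probe sets and in the other direction, as for Hoxd1, Hoxd8 and Hoxd13, for 4.69%. Among the untested probe sets only Hoxb9 had no overlap, with 0.94 to 5.17 in wild type and 0.252 to 0.875 in depleted oocytes, all under background.

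HoxC gave the least signal. Hoxc6, a thoracic gene, had 2 tested probe sets. The first gave 11.9 ± 6.82 in wild type and 5.06 ± 4.7 in depleted oocytes, a log2 fold change of -0.98 ± 0.39 with a limma adjusted p of 0.115. The second, again with the suffix x, gave 12.3 ± 5.45 and 10.9 ± 6.02, a log2 fold change of -0.17 ± 0.37. The other tested gene, Hoxc9, gave 7.74 ± 5.09 and 10.8 ± 5.76, with a log2 fold change of 0.41 ± 0.39 and a limma adjusted p of 0.569. None of the 3 was called, and in all 3 the groups overlapped.

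**Figure D4:**
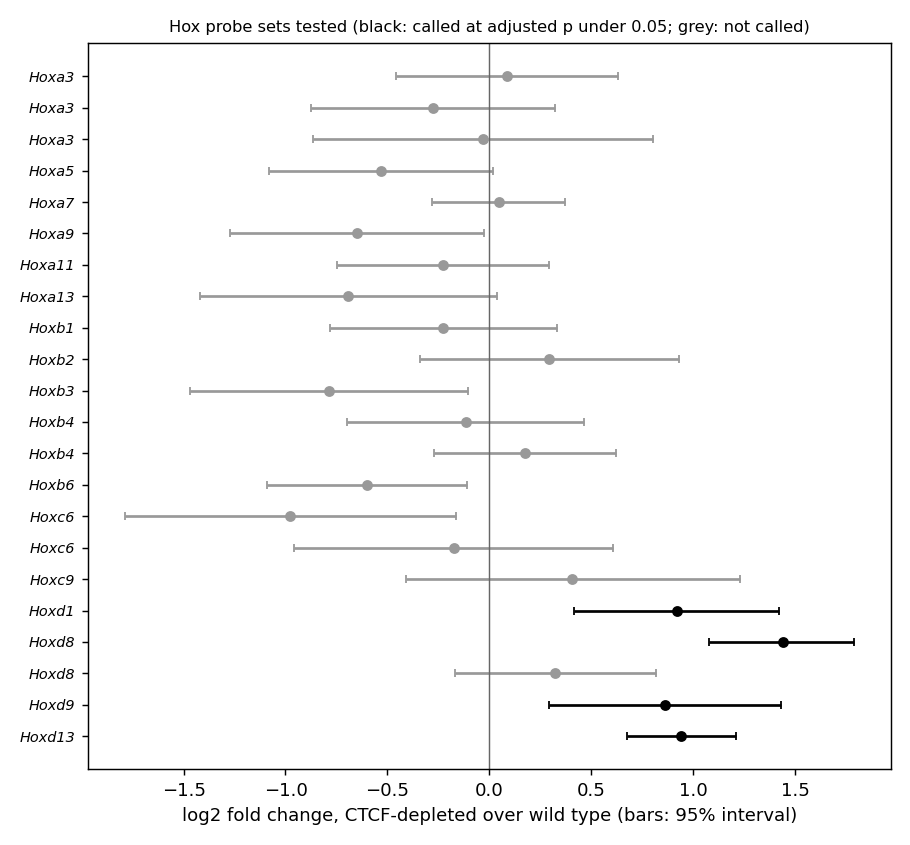
Log2 fold change, depleted over wild type, for the 22 tested Hox probe sets, with 95% intervals from limma; black marks an adjusted p under 0.05. The black points are Hoxd1, Hoxd8, Hoxd9 and Hoxd13, from 0.86 to 1.44, and the grey points range from -0.98 to 0.41.

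Paralogues, genes at matching places in the different clusters, can share functions, and those of the called genes are set side by side here. Beside Hoxd9 at 0.86, Hoxa9 had a log2 fold change of -0.65 and Hoxc9 of 0.41, neither called, and Hoxb9 was under background. Beside Hoxd13 at 0.94, Hoxa13 was not called and under background on every depleted array, and Hoxb13 and Hoxc13 were too dim to be tested. Beside Hoxd1, Hoxb1 gave 8.39 ± 3.02 and 6.66 ± 1.87 and was not called. Beside Hoxd8, Hoxc8 was too dim to be tested. Differences between paralogues were not tested.

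Probe sets that carried a second Hox symbol or an antisense name were left out by the rule. The probe set shared by Hoxb8 and Hoxb7 and those of the antisense genes Hoxa11os and Hoxd3os1 were under background on all arrays. Of the 2 shared by Hoxd4 and Hoxd3, 1 exceeded background on 1 depleted array and the other on none. Hoxb5os exceeded it on 2 wild-type and 3 depleted arrays and was not called (limma adjusted p 0.983).

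Beside the clusters, a gene just outside HoxA and another just outside HoxB rose, and no tested neighbour of HoxD was called. Of all probe sets tested on the array 12.6% were called, 5.48% higher and 7.12% lower. Counts as small as those beside the clusters cannot be set apart from that share. The difference between clusters was not tested. Evx1, a homeobox gene of the Hox-linked even-skipped family and the first protein-coding gene beyond Hoxa13, gave 280 ± 25.8 in wild type and 398 ± 16.6 in depleted oocytes (log2 fold change 0.51 ± 0.07, limma adjusted p 0.000103). Its groups did not overlap. It was the only called one of 11 tested probe sets beside HoxA. Skap1, an adaptor protein of T cells and the first gene beyond Hoxb1, was called higher with 2 of its 3 probe sets, from 164 ± 9.14 to 236 ± 13.7 (adjusted p 0.000123) and from 349 ± 44.8 to 424 ± 38.6 (adjusted p 0.0448). The call of the latter was lost when any of 7 single arrays was left out. The remaining one gave 333 ± 11 and 340 ± 31.3. These were the only calls among 15 probe sets beside HoxB.

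Beside HoxC, 2 of 13 tested probe sets were called, both lower, where 7.12% of all tested probe sets were called lower. Atp5g2, a subunit of mitochondrial ATP synthase, gave 893 ± 35.2 and 641 ± 35.2, and Copz1, a coat protein of transport vesicles, gave 1169 ± 108 and 985 ± 47.7. Beside HoxD, 0 of 11 tested probe sets were called by limma, with 1 higher (Atp5g3) and 1 lower (Atf2) at an unadjusted p under 0.05. Evx2, the even-skipped relative next to Hoxd13, gave 24.1, 14.7, 21.0, 16.7 and 16.7 in wild type and 12.7, 11.6, 26.1, 18.7 and 17.6 in depleted oocytes. Its means of 18.6 ± 3.78 and 17.3 ± 5.76 had a log2 fold change of -0.12 with a limma adjusted p of 0.778. Mtx2, next to Hoxd1 and part of the mitochondrial import machinery, gave 322 ± 21.2 and 327 ± 14.5. So the first gene beyond either end of the cluster was not called, while genes of the cluster were, Hoxd13 and Hoxd1 at its ends among them.

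**Figure D5:**
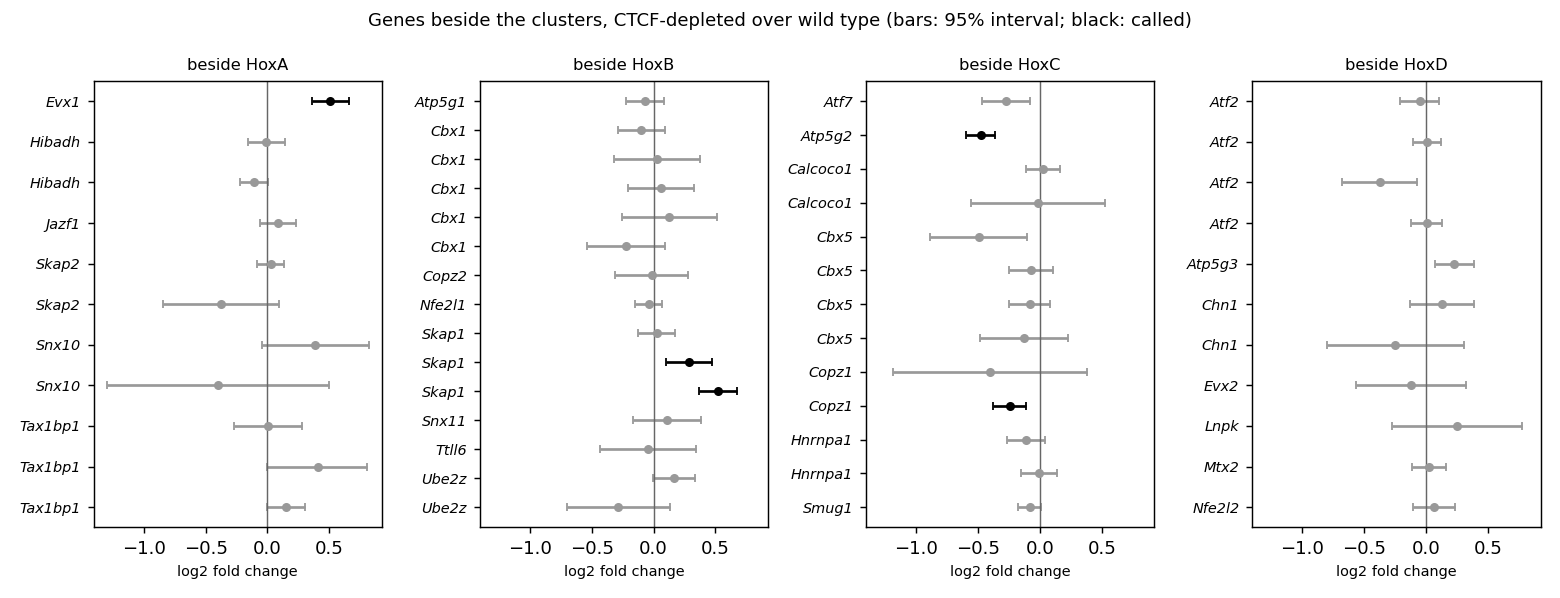
Log2 fold change, depleted over wild type, of tested probe sets of genes beside each cluster, with 95% intervals from limma; black marks an adjusted p under 0.05. Evx1 (0.51) and 2 Skap1 probe sets (0.52 and 0.28) were called higher, Atp5g2 (-0.48) and Copz1 (-0.24) lower, and none was called beside HoxD.

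Other homeobox genes of development were mostly dim as well. Of 113 probe sets for 75 such genes 47 were tested, of which 4 were called higher and 1 lower, with a median log2 fold change of 0.01. The shares over all tested probe sets were 5.48% higher and 7.12% lower. Barx1, which acts in the stomach and jaw, rose from 12.8 ± 4.18 to 42.8 ± 7.39 (log2 fold change 1.61 ± 0.21, limma adjusted p 6.01e-05). Irx1, a patterning gene of the Iroquois family, rose from 14.5 ± 1.92 to 37.3 ± 4.14 (1.23 ± 0.15, adjusted p 2.66e-05). The Hoxd8 change was 1.44 ± 0.17 on the same scale, so rises of about this size also occurred outside the Hox clusters. Emx2 and Isl1 rose by less, 0.49 and 0.47, and Isl2 fell by 0.34 on the log2 scale. The calls of Isl1 and Isl2 were lost when any of 4 and 6 single arrays was left out. Of the ParaHox genes, close relatives of the Hox genes, 4 probe sets were tested and 0 called by limma, with 1 (Cdx2) lower at an unadjusted p under 0.05. Pdx1 gave 365 ± 30.9 and 395 ± 32.3 with its brighter probe set. Clustered protocadherins, another gene family with CTCF-bound promoters, had only 3 of 29 probe sets tested. Of these, 2 were called, both lower. Pcdhb15 fell from 19.1 ± 4.36 to 3.78 ± 3.61. Pcdhb17 fell from 15.4 ± 2.44 to 4.94 ± 0.95, at least 1.97-fold higher in wild type since all depleted arrays were under background. Both had depleted means under the filter's 5.13, so they passed it only through their wild-type signal. The count of 2 among 3 therefore gives no direction for the family.

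HOX proteins bind DNA with cofactors of the PBX and MEIS families. Of 14 tested cofactor probe sets 1 was called, a Pbx3 probe set that fell from 126 ± 11 to 93 ± 15.7 (limma adjusted p 0.0166). That call was lost with the RNA quality covariate. The other Pbx3 probe set gave 39.4 ± 4.31 and 36.1 ± 3.51 and was not called (limma adjusted p 0.617). The brightest cofactor probe set, of Meis2, gave 3417 ± 217 and 3506 ± 283. The genes for Polycomb and Trithorax proteins that regulate Hox clusters had 71 of 93 probe sets tested. Of these 8 were called, with no common direction, a share close to the 12.6% over the whole array. Cbx2, Pcgf5 and Phc3, parts of Polycomb repressive complex 1, rose by 0.25, 0.38 and 0.41 on the log2 scale, as did Wdr5, a part of Trithorax-type methyltransferases, by 0.19. Suz12, Ezh1, Mtf2 and Phf19, parts or partners of Polycomb repressive complex 2, fell by 0.29, 0.22, 0.20 and 0.34 on the log2 scale. Other probe sets of these genes were not called, and the calls of Mtf2, Phc3 and Phf19 were each lost when any of 7 or more single arrays was left out. The median over the list was -0.02, and differences between the complexes were not tested.

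Retinoic acid is a known inducer of Hox genes in the embryo. Of 15 tested probe sets of its pathway 3 were called higher and 2 lower, where 12.6% of all tested probe sets were called. Rdh10 and Aldh1a2, which make retinoic acid in consecutive steps, moved in opposite directions: both Rdh10 probe sets rose, by 0.29 and 0.32, and Aldh1a2 fell by 0.55 on the log2 scale. The receptor gene Rxra rose by 0.38 with 1 probe set, and the receptor gene Rarb, itself a target of retinoic acid, fell from 18.5 ± 4.58 to 7.09 ± 2.8 (adjusted p 0.00392).

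Markers of other ovarian cells were measured beside the HoxD rise. Of 19 tested granulosa and cumulus cell probe sets 3 were called higher, Fshr (23.2 ± 6.69 to 47.8 ± 5.75) and 2 of Nr5a2, and 1 lower, of Kitl, with Tnfaip6 never above background. Among all tested probe sets 5.48% were called higher and 7.12% lower. The summed signal of the granulosa and cumulus list was 1194 to 1974 in wild type and 1269 to 1610 in depleted oocytes. Of the theca and stroma markers 0 of 10 were called by limma (1 at an unadjusted p under 0.05), with sums of 260 to 295 and 249 to 296, and of the blood, immune and endothelial markers 0 of 5 (0 at an unadjusted p under 0.05), with sums of 190 to 215 and 198 to 227 and Ptprc never above background. All 3 sums overlapped between the groups, and the part of such cells in the HoxD result was not tested.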

How the data were processed

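Total RNA of 5 wild-type and 5 CTCF-depleted oocyte samples, grouped by their titles, was purified with a Picopure kit and labelled with biotin by an Affymetrix small-sample protocol, per the labels' protocols. The authors deposited 1 linear intensity for each probe set on each array; the submitters' processing notes name MAS5, and further settings and a genome build were not given in the sources used. After leaving out the extremes, array means were equal (150.001), so arrays had been scaled. MAS5 takes the mismatch probes' signal off, so that dim values vary widely, and the number of arrays limits the precision.

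Of 45037 probe sets without the 64 controls, 34945 had 1 gene symbol, 932 several and 9160 none. All 48 Hox probe sets matched the RefSeq table of GRCm38.p6 by gene ID, with 0 symbols changed. The tested value was log2(signal + 2.47), with the 25th percentile as offset; changes of dim genes are understated on this scale. A filter took out all with a mean under the 40th percentile. The other 27022 were fitted with limma 3.58.1 in R 4.3.3 (lmFit, eBayes with intensity trend), without a block, with Benjamini-Hochberg adjustment over all of them. The fit was tested on simulated data. Single probe sets also had a two-sided exact permutation test. A fold was given as a bound where a group was above background on all its arrays and the other on none. The bound was the brighter group's mean log2 signal less the dimmer group's. Each dim array entered with its background level where that was higher.

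Named genes were Ctcf, Hox probe sets above background on 3 or more arrays of a group or called, those next to the filter, and called members of each list or, without calls, its brightest. A few others were named after their values were seen. The members and lists were chosen with earlier results of these data known. Alternatives were other offsets, filters, normalizations, variance models, background levels and thresholds, array weights, a replicate block and leaving out each array; the RNA quality covariate and 1 background level for all arrays were added after seeing the data.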

Additional observations from a re-analysis of the deposited data

Results flagged for a closer look

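Within groups of 5 arrays, 7 of 52 sets of values had 1 array far from the rest, by a criterion (gap over range above 0.71) that chance alone meets in about 1 in 20. Hoxa9 gave 4.87 on depleted replicate 5, where the other depleted arrays gave 19 to 24.7. The first Hoxc6 probe set gave 13.2 on depleted replicate 4 against 1.46 to 4.56. Ctcf itself gave 61.1 and 95.8 with its 2 probe sets on depleted replicate 5, against 7.07 to 14.2 and 16.7 to 29.3. Of the counts of Hox probe sets above background, wild-type replicate 5 had 3 in HoxB where the other wild-type arrays had 4, depleted replicate 3 had 4 in HoxD where the other depleted arrays had 5, and wild-type replicate 2 had 7 in HoxD where the other wild-type arrays had 3. In these counts the other 4 arrays were tied, so that any difference met the criterion.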

How the results depend on the processing

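Hoxd8 and Hoxd13 were called higher under all 25 alternatives, with adjusted p values up to 0.000808 and 0.000514. Hoxd9 lost its call under 11 of 25, among them the fits without wild-type replicate 4, without wild-type replicate 5 and without any 1 of the depleted arrays, with adjusted p values up to 0.127. Hoxd1 lost its call under 3 (without depleted replicate 4, with the RNA quality covariate and at an adjusted p under 0.01), with values up to 0.0737. The 4 Hox calls became 2 at an adjusted p under 0.01 and 2 with the RNA quality covariate. Leaving out each array gave 2 to 4 higher (2 without depleted replicate 4) and 0 to 1 lower, log2 fold changes of 1.28 to 1.5 for Hoxd8, 0.88 to 0.99 for Hoxd13, 0.82 to 1.05 for Hoxd1 and 0.55 to 1.05 for Hoxd9. With the filter at the 60th percentile Hoxd1 was not tested.

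The count of Hox probe sets called lower, 0 as reported, was 1 with an offset of 16, with an offset of 32, without the filter and with a filter on arrays above background (all the dimmer Hoxa5 probe set), and 1 without the intensity trend (Hoxb6). It was 2 with the replicate block (Hoxb3, adjusted p 0.0273, and Hoxc6, adjusted p 0.0484), where the 4 HoxD calls held. Deviations of same-numbered arrays correlated weakly, at 0.00243 to 0.0506, and 2 of the 5 numbers correlated best with their own. Correlations this weak cannot decide whether the numbers 1 to 5 pair the arrays. Without depleted replicate 4 Hoxc6 was called lower (adjusted p 0.0299), and without depleted replicate 5 the brighter Hoxa5 probe set was (0.0423).

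Over the whole array, 743 probe sets were called higher and 1078 lower at an adjusted p under 0.01, 1086 lower after median centring, and 1145 to 1459 higher and 1567 to 1858 lower without each array. The mean number of Hox probe sets above background, 16 and 15, was 21.4 and 18.4 with the second brightest Bacillus control as the level, 22.4 and 19.4 with the 95th percentile of those controls, 8.6 and 7.2 with double the brightest, 21 and 19.2 with the 40th percentile of the array, and 11.4 and 9.8 with 1 level for all arrays. Under these levels wild type was higher by less than the range within a group. Without each array the means were 14.5 to 17.2 and 13.5 to 16, and without wild-type replicate 2 the wild-type mean, 14.5, was under the depleted 15.

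Of 1135 values for 46 named probe sets, 1020 kept direction and call, 90 lost the call, 5 gained one and 20 changed sign, all 20 of Hox probe sets that were not called. 1 Hoxa3 probe set (-0.03) was 0.0187 with an offset of 16, 0.0152 with 32, 0.055 after median centring, 0.0521 after quantile normalization, 0.0994 with array weights and 0.276 with the covariate. With each array left out it ranged from -0.268 to 0.231, Hoxa7 (0.05) from -0.0519 to 0.14, the dimmer Hoxb4 probe set (-0.11) from -0.224 to 0.0547 and the second Hoxc6 probe set (-0.17) from -0.463 to 0.138. With the covariate the brighter Hoxb4 probe set was -0.0639 and the second Hoxc6 probe set 0.0158. Outside the clusters, Phf19 lost its call under 16 of 25 alternatives, Phc3, Mtf2 and 1 Skap1 probe set under 11 each, Isl2 under 10 and Isl1 under 6; median centring also ended the calls of Copz1, Ezh1 and Suz12. The causes were not tested. Most Hox signals lie within a few units of background, which limits every direction given for them.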
